A study of Mus musculus with 8 samples.

Results

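Brain endothelium is the single layer of cells that lines the blood vessels of the brain, and it was followed here in the dentate gyrus through 10 of its genes, of 26894 gene symbols on the array. Every probe whose symbol in the deposited fold-change tables was Cldn5, Cdh5, Pecam1, Flt1, Kdr, Tek, Slc2a1, Slco1a4, Abcb1a or Mfsd2a was taken, which gave 16 of 56605 probes. This rule uses no measured value, but the 10 genes were chosen with earlier results of these data known. The 8 one-colour arrays, 2 for each of 4 groups, had been hybridised with dentate gyrus RNA from C57BL/6 males, 8 to 9 weeks old. Derlin-1 and Derlin-2 are proteins of the endoplasmic reticulum membrane that help to dispose of misfolded proteins. The Derlin-1 control and Derlin-2 control mice carried Derl1 or Derl2 with both copies flanked by loxP sites (flox/flox), without Cre. The corresponding KO mice, Derlin-1 KO in the Derl1 line and Derlin-2 KO in the Derl2 line, carried the same floxed gene together with Cre recombinase driven by the nestin promoter. The group of each array rests on its title, since the genotype given for the KO samples is the floxed one alone. Nestin-Cre acts in the neural lineage, and endothelial cells arise outside it. Recombination in vessel cells was not measured here. The tissue was used whole, so fewer endothelial cells and less RNA per endothelial cell cannot be told apart.

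The vessels of the brain form the blood-brain barrier. Their endothelial cells are sealed to each other by tight junctions, hold few transport vesicles, and carry nutrients inward and foreign compounds outward through dedicated transporters. Vascular endothelial growth factor (VEGF) and angiopoietin, made largely by the cells around the vessel, act on receptor kinases of the endothelium, and Wnt ligands from neural cells help to keep the barrier.

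The start of 2 of these genes is shown to set a window that lacks a motif of endothelial transcription factors beside one that holds it. Each line gives the 250 bases before the gene start in RefSeq (GRCm38.p6), on the strand of the gene, with GGAA on either strand in capitals. GGAA is the core of the motif bound by ETS factors, a family with several members that endothelial cells use.
Cldn5, chr16:18776597-18776846, plus strand: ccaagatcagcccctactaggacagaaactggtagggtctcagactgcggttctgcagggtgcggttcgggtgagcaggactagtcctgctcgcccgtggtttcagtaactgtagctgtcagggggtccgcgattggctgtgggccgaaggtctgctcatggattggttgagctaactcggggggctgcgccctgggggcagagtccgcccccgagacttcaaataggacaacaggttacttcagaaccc
Abcb1a, chr5:8566841-8567090, plus strand: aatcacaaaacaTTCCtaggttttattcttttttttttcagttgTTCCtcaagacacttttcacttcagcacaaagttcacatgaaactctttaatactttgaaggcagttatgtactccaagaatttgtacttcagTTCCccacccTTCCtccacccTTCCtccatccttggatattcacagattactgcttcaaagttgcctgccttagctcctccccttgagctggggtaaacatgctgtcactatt
The Cldn5 window held GGAA 0 times and the Abcb1a window 5 times, and the G and C bases made up 59.6% and 40.4% of them. The RefSeq promoter table used here held a window of this length for 8 of the 10 genes, all but Cdh5 and Pecam1. It ended at the gene start for 3 of them, Cldn5, Abcb1a and Slc2a1, and elsewhere for the other 5. GGAA was found in 6 of these 8 and in 93.4% of the 32851 promoter windows of the table. The GC box GGGCGG was found in 4 of the 8 and in 32.7% of all windows, and TATAAA in 1 of the 8, Flt1, and in 12.4% of all windows, each searched on both strands. These matches describe the letters of the window and show no binding.

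All 10 genes were measured. Each had at least 1 probe well above background on all 8 arrays, and this held for 12 of the 16 probes. A probe of Flt1 and a pair of Kdr probes were well above background on no array, and a second Abcb1a probe on some of the arrays only. Where a gene had several probes, namely Flt1, Kdr and Abcb1a, the brightest stands for it. Levels are given as log2 of the quantile-normalized signal of a probe, so that a step of 1 is a doubling of the signal, and they are compared between arrays for the same probe only.

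On each array 67.53% to 70.26% of the probes exceeded background clearly, no spot was saturated, and the arrays of a group correlated with Pearson's r of 0.987 to 0.995 across probes. Each line occupied a slide of its own, with controls at the first positions, so the slide and the line cannot be told apart. Every KO group shared its slide with its controls. The 6 granule neuron markers that were checked, which define the dentate gyrus, were above background on every array. The targeted genes checked the labels in part. The brightest Derl2 probe read 11.29 ± 0.10 in Derlin-2 control and 10.64 ± 0.02 in Derlin-2 KO (SD, n = 2), a log2 difference of -0.65, and its second probe differed by -1.05. Neither Derl2 probe passed the test in that line (limma adjusted p = 0.278 and 0.243), although this is the targeted gene. In the Derl1 line the brightest Derl1 probe differed by -0.20 and the second probe by 0.46, in the opposite direction. Whether these probes lie in the deleted part of either gene is not given in the sources used here, so the Derlin-1 KO label rests on the titles. Limma, with Benjamini-Hochberg adjustment over all probes, called 0 of 38398 probes in the Derl1 line, 9 of 38362 in the Derl2 line and 2 of 39785 for the difference between the lines. At an unadjusted p under 0.05 there were 1753, 2035 and 2322 probes.

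None of the 10 endothelial genes passed the test in either KO. In the Derl1 line 6 were higher and 4 lower in KO than in control, with a median log2 difference of 0.009 against -0.020 over all 19172 genes tested. In the Derl2 line 6 were again higher and 4 lower, with a median of 0.03 against 0.008 over 19446 genes. Limma's adjusted p was 0.9999 for each of them in the Derl1 line and between 0.966 and 0.9993 in the Derl2 line, and 0 of the 10 had an unadjusted p under 0.05 in either, against 4.08% and 4.52% of all genes. The share of all genes called was 0% in the Derl1 line and 0.0257% in the Derl2 line. The methods' t-test without adjustment called 2 of the 10 in the Derl1 line, Slco1a4 and Mfsd2a, against 5.78% of all genes, and 0 in the Derl2 line, against 5.1%. After Benjamini-Hochberg adjustment it called 0 in both. A p above the threshold does not show that a gene stayed the same. The 95% intervals of the limma fit for the brightest probes reached a change of at most 1.39-fold in the Derl1 line and 1.64-fold in the Derl2 line. Other probes of a gene reached further, up to 2.76-fold for the second Abcb1a probe in the Derl1 line.

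**Figure D1:**
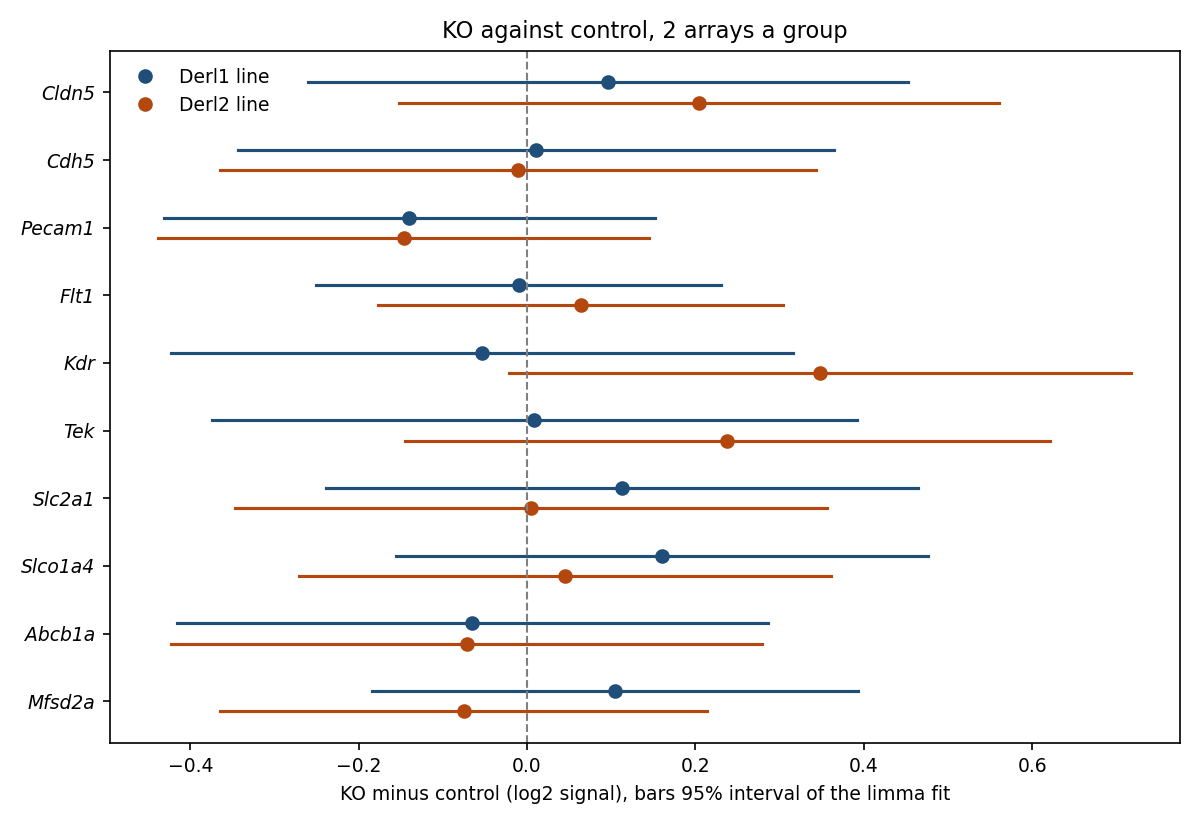
KO minus control for the 10 endothelial genes, as the difference of mean log2 signals, with the 95% interval of the limma fit (2 arrays a group). Every interval includes 0, and the Kdr estimate in the Derl2 line, 0.35, lies farthest from it.

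Cldn5, Cdh5 and Pecam1 join neighbouring endothelial cells. Claudin-5, the main tight junction protein of the barrier, is encoded by Cldn5, which read 11.28 and 11.38 in Derlin-1 control, 11.34 and 11.52 in Derlin-1 KO, 11.35 and 11.004 in Derlin-2 control, and 11.37 and 11.39 in Derlin-2 KO. The lowest value was that of Derlin-2 control replicate 2, and in that line both KO arrays lay above both controls, narrowly over replicate 1. The difference was 0.10 (SE 0.15) in the Derl1 line and 0.20 (SE 0.15) in the Derl2 line. VE-cadherin, the adhesion protein of endothelial junctions, is the product of Cdh5. It read 7.98 and 7.95 in Derlin-1 control, 7.99 and 7.96 in Derlin-1 KO, 8.23 and 8.53 in Derlin-2 control, and 8.50 and 8.24 in Derlin-2 KO. The 4 arrays of the Derl1 line lay close together and all below the Derl2 line, while KO and control overlapped in both lines, with differences of 0.01 and -0.01 (SE 0.15 each). Pecam1, an adhesion molecule of the cell border that platelets and white blood cells carry too, read 7.12 and 6.98 in Derlin-1 control, 6.86 and 6.97 in Derlin-1 KO, 7.25 and 7.05 in Derlin-2 control, and 6.95 and 7.06 in Derlin-2 KO. The differences were -0.14 and -0.15 (SE 0.12 each), and the groups were apart in the Derl1 line and overlapped in the Derl2 line.

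Flt1, Kdr and Tek encode the receptor kinases. VEGF receptor 1, which binds VEGF and limits its action on the second receptor, is the product of Flt1, which read 12.24 and 12.16 in Derlin-1 control, 12.20 and 12.17 in Derlin-1 KO, 12.25 and 12.26 in Derlin-2 control, and 12.38 and 12.25 in Derlin-2 KO. All 8 values lay within 0.23. Its differences were -0.01 and 0.06 (SE 0.10 each). VEGF receptor 2, the main signalling receptor for VEGF, is encoded by Kdr, which read 9.50 and 9.43 in Derlin-1 control, 9.46 and 9.36 in Derlin-1 KO, 10.08 and 9.77 in Derlin-2 control, and 10.40 and 10.14 in Derlin-2 KO. Kdr varied most of the 10 genes. Both Derlin-2 KO arrays lay above both of their controls, and all 4 arrays of that line above the Derl1 line. The Derlin-2 difference was 0.35 (SE 0.15, 95% interval -0.02 to 0.72, limma adjusted p = 0.966), against -0.05 in the Derl1 line. The difference between the lines was -0.40, Derlin-1 minus Derlin-2, with a limma adjusted p of 0.875. Tek, the receptor of angiopoietins, read 7.56 and 7.34 in Derlin-1 control, 7.50 and 7.41 in Derlin-1 KO, 7.18 and 6.97 in Derlin-2 control, and 7.15 and 7.47 in Derlin-2 KO. The KO groups overlapped their controls, with differences of 0.01 and 0.24 (SE 0.16 each).

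The probes of Flt1 did not move alike. The second brightest, at 10.16 on average, differed by -0.06 in both lines. The dimmest measured, at 7.81, read 7.94 and 7.73 in Derlin-1 control, 7.54 and 7.62 in Derlin-1 KO, 7.93 and 7.69 in Derlin-2 control, and 8.04 and 8.01 in Derlin-2 KO. It was lower in Derlin-1 KO, by -0.26, and higher in Derlin-2 KO, by 0.22, with the groups apart in both lines. Of all genes, by brightest probe, 17.9% lay wholly below control in Derlin-1 KO and 18% wholly above in Derlin-2 KO. The difference of this Flt1 probe between the lines was -0.48 (SE 0.18, limma adjusted p = 0.848). The Derlin-2 values of this probe and those of the brightest Flt1 probe point the same way, and the Derlin-1 values differ in size. The second Abcb1a probe was at 4.31 on average and differed by 0.36 (SE 0.45) in the Derl1 line, where the brightest probe differed by -0.07.

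Slc2a1, Slco1a4, Abcb1a and Mfsd2a serve transport across the barrier. The glucose transporter GLUT1, which other brain cells carry as well, is encoded by Slc2a1, which read 12.82 and 12.66 in Derlin-1 control, 12.86 and 12.84 in Derlin-1 KO, 12.67 and 12.98 in Derlin-2 control, and 12.92 and 12.74 in Derlin-2 KO. Its differences were 0.11 and 0.0048 (SE 0.14 each). Slco1a4, a carrier of organic anions, read 9.85 and 9.83 in Derlin-1 control, 9.98 and 10.02 in Derlin-1 KO, 9.72 and 9.39 in Derlin-2 control, and 9.59 and 9.61 in Derlin-2 KO. The Derlin-1 replicates lay close together and the groups apart, with a difference of 0.16 (SE 0.13), while the Derlin-2 KO arrays fell between their controls, with a difference of 0.05. Abcb1a encodes P-glycoprotein, the pump that returns drugs to the blood. It read 9.82 and 9.94 in Derlin-1 control, 9.83 and 9.79 in Derlin-1 KO, 9.67 and 10.03 in Derlin-2 control, and 9.83 and 9.72 in Derlin-2 KO. KO and control overlapped in both lines, with differences of -0.07 in each (SE 0.14). Mfsd2a, which carries lipids that contain docosahexaenoic acid and holds back vesicle transport, read 10.99 and 10.98 in Derlin-1 control, 11.10 and 11.09 in Derlin-1 KO, 10.92 and 11.14 in Derlin-2 control, and 10.87 and 11.03 in Derlin-2 KO. Its Derlin-1 groups were apart by 0.10 in the mean (SE 0.12), and its Derlin-2 difference was -0.08. Its probe was the 1 brightest probe of the 10 genes that lay in the last of 8 bands of array rows.

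**Figure D2:**
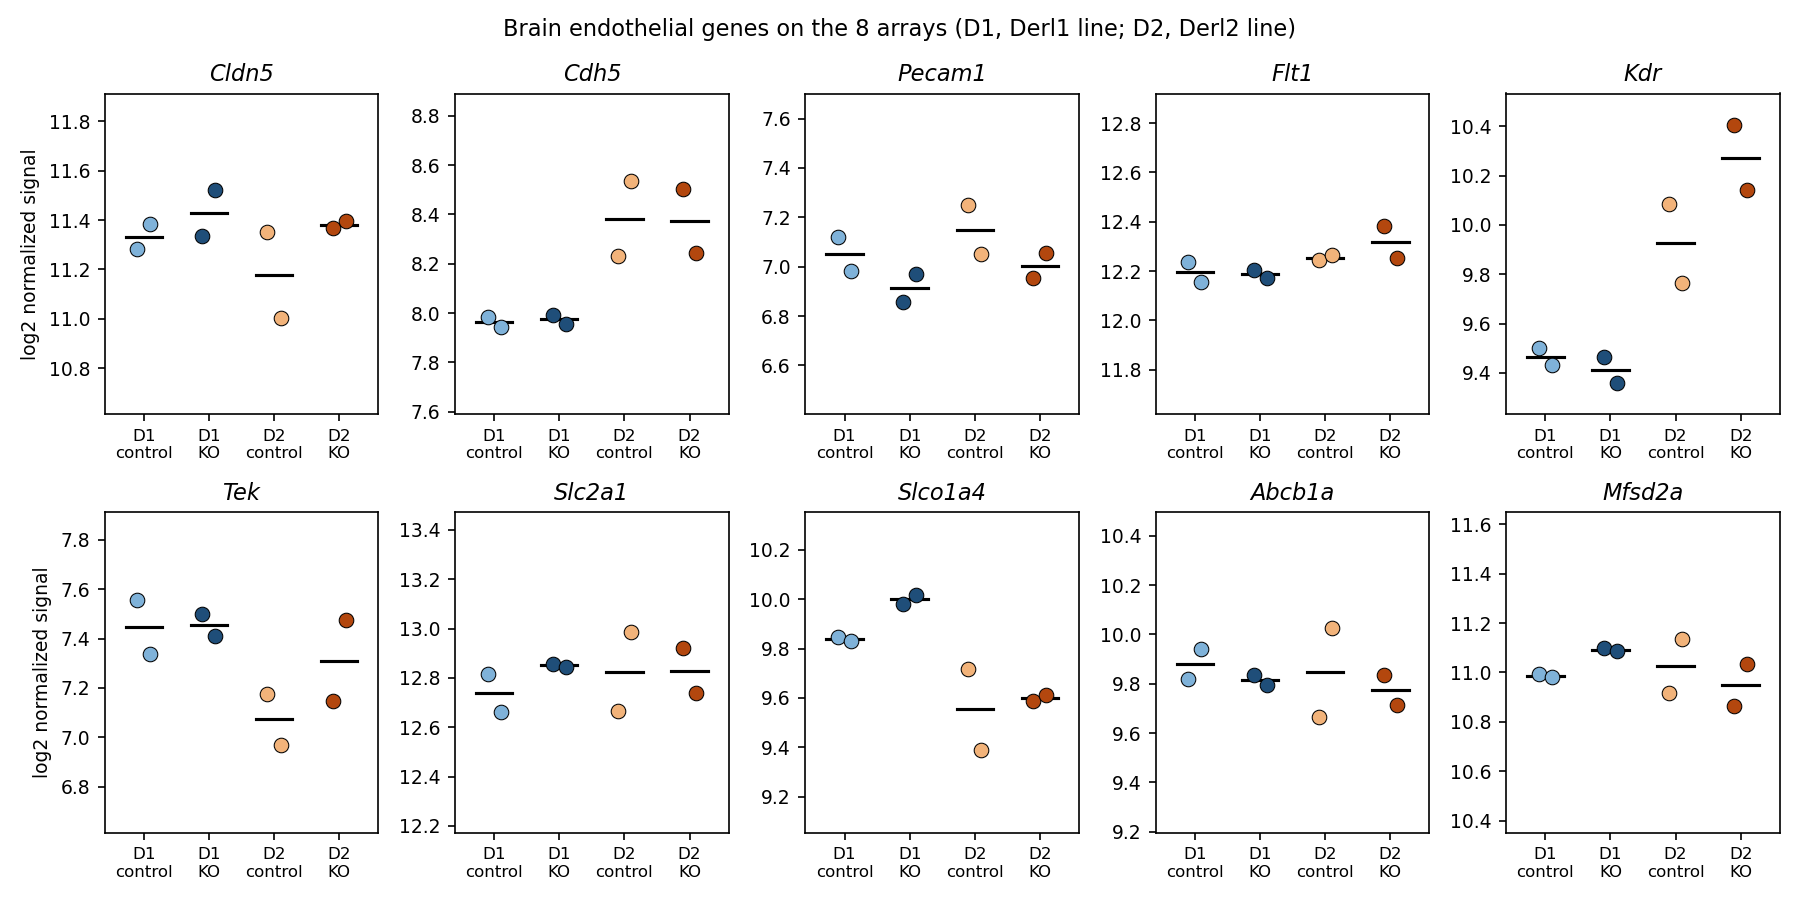
Log2 normalized signal of the 10 endothelial genes on the 8 arrays, with circles for arrays, bars for group means and a window of the same height in every panel. Kdr in Derlin-2 KO, at 10.14 and 10.40, lay above all other arrays, and Cdh5, Flt1 and Kdr were higher on all 4 arrays of the Derl2 line.

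Both KO arrays lay above both controls for 3 of the 10 genes in the Derl1 line, Slco1a4, Slc2a1 and Mfsd2a, where 16.5% of all genes did so. They lay below both controls for 1, Pecam1, where 17.9% of all genes did so. In the Derl2 line the count was 2 above, Cldn5 and Kdr, against 18% of all genes, and 0 below, against 14.7%. The genes apart in one line were not those apart in the other. The share of all genes apart in both lines was not counted, so this only describes the 10 genes. For the difference between the lines 0 of the 10 passed limma's test, with adjusted p between 0.875 and 0.9995, and 0.00505% of all genes did. The median of that difference was 0.007, and the widest interval of the brightest probes reached 1.90-fold. An exact permutation test of 2 arrays against 2 cannot reach the threshold of 0.05, so none was used for single genes.

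The wider set of endothelial genes gave the same count of calls. It shares genes with the Wnt, capillary and venous lists given below, so their counts are not separate. Of 40 further genes, 39 were tested (Flt4 was not above background), and limma called 0 of them in either KO. There were 18 higher and 21 lower in Derlin-1 KO with a median difference of -0.01, and 24 higher and 15 lower in Derlin-2 KO with a median of 0.04. Of 10 transcription factors 9 were higher in Derlin-2 KO, with a median of 0.09, against 5 of 10 in Derlin-1 KO. Over all genes 52.33% were higher in Derlin-2 KO and 44.07% in Derlin-1 KO. Fli1, an ETS factor of endothelial and blood cells, read 7.51 and 7.36 in Derlin-2 control and 7.94 and 7.98 in Derlin-2 KO, a difference of 0.52 (SE 0.11) with a limma adjusted p of 0.567. In the Derl1 line it read 7.67 and 7.66 in control and 7.72 and 7.52 in KO, with no gap between the groups. Its difference between the lines was -0.57 (limma adjusted p = 0.741). Of 10 transporters 7 were higher in Derlin-2 KO and 4 in Derlin-1 KO. Among 10 genes of junctions and the cell surface 4 were higher in each KO, and among 9 receptors 5 and 4.

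Among 7 ligands of vessel growth, limma called 0 in either KO. Vegfa, the ligand of both VEGF receptors, read 10.48 and 10.51 in Derlin-1 control and 10.72 and 10.86 in Derlin-1 KO, a difference of 0.30 (SE 0.10, limma adjusted p = 0.9999). In the Derl2 line it read 10.32 and 10.29 in control and 10.29 and 10.27 in KO. Its other probes did not move alike. In Derlin-1 KO they differed by 0.40, -0.08 and 0.05, and in Derlin-2 KO by -0.28, -0.04 and 0.42. Angpt1, the agonist of the Tek receptor, read 8.81 and 8.23 in Derlin-2 control and 9.15 and 9.11 in Derlin-2 KO, a difference of 0.61 (SE 0.20, limma adjusted p = 0.817). The control arrays lay far apart there. In the Derl1 line it differed by 0.19 (SE 0.20). Among 13 genes of the Wnt pathway that keeps the barrier, 4 were higher in Derlin-1 KO with a median of -0.02 and 9 in Derlin-2 KO with a median of 0.08, with 0 calls. Of all genes 44.07% and 52.33% were higher in these KO groups. The 7 measured genes of endothelial activation, such as adhesion molecules for white blood cells, were higher in KO for 3 and 2 genes in the Derl1 and Derl2 lines, also with 0 calls. Sele, a selectin of activated endothelium, was not well above background.

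By segment of the vessel tree, capillary genes had median differences of 0.002 in the Derl1 line and 0.08 in the Derl2 line over 7 genes, arterial genes -0.12 and 0.04 over 7, and venous genes 0.05 and -0.20 over 5. None of these genes passed the test in a KO. Mfsd2a is also in the capillary list, and Vwf is in both the venous and the activation list. The RNA came from whole tissue. Which cells gave the signals of these lists, or of the further endothelial genes, was not tested.

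Cells that lie on or near the vessel were followed by markers of their own. Of 10 pericyte markers 8 were lower in Derlin-1 KO (median -0.06) and 6 in Derlin-2 KO (median -0.08), with 0 calls by limma. Of all genes 44.07% were higher in Derlin-1 KO and 52.33% in Derlin-2 KO. Abcc9 and Kcnj8 encode the subunits of the potassium channel of pericytes that closes with ATP. Abcc9 read 7.44 and 7.65 in Derlin-1 control, 6.76 and 6.80 in Derlin-1 KO, 8.36 and 7.90 in Derlin-2 control, and 7.29 and 7.49 in Derlin-2 KO. KO lay below control in both lines, with differences of -0.76 and -0.74 (SE 0.18 each) and limma adjusted p of 0.9999 and 0.624. Both KO arrays lay below both controls for 17.9% of all genes in the Derl1 line and 14.7% in the Derl2 line. Kcnj8 read 9.34 and 9.25 in Derlin-1 control, 8.77 and 8.65 in Derlin-1 KO, 9.38 and 9.22 in Derlin-2 control, and 9.47 and 9.41 in Derlin-2 KO. It differed by -0.59 (SE 0.11, limma adjusted p = 0.9999) in the Derl1 line and by 0.14 in the Derl2 line. Kcnj8 lay wholly below control in Derlin-1 KO, as did 17.9% of all genes, and wholly above in Derlin-2 KO, as did 18%. The gap in the Derl2 line was narrow, from 9.38 in the higher control to 9.41 in the lower KO. Its difference between the lines was -0.73 (limma adjusted p = 0.589).

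Genes of blood cells also differed between arrays. All 6 measured blood cell genes, led by globins, were lower in KO in both lines, with medians of -0.50 and -0.16 and 0 calls by limma. Of all genes 44.07% were higher in Derlin-1 KO and 52.33% in Derlin-2 KO. The mean deviation of the blood cell genes from their 8-array mean was -0.27 and 0.74 in Derlin-1 control, -0.36 and -0.26 in Derlin-1 KO, -0.10 and 0.37 in Derlin-2 control, and -0.11 and -0.01 in Derlin-2 KO. The second control of each line thus stood above the rest. The mean deviation of the 10 endothelial genes ran from -0.06 to 0.07 on the same arrays, and that of the 39 further endothelial genes from -0.03 to 0.08. The part of blood in the endothelial values was not tested.

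Markers of the other cells that the dissected tissue can hold gave 0 calls by limma in either KO. Median differences in Derlin-1 KO and Derlin-2 KO were -0.006 and -0.03 for 5 genes of vascular smooth muscle, 0.18 and 0.17 for 7 of fibroblasts and meninges, and 0.04 and -0.16 for 5 of perivascular macrophages. For the choroid plexus, whose epithelium is not part of the dentate gyrus, they were 0.33 and 0.16 over 6 genes, and its mean deviation ran from -0.80 on a Derlin-1 control array to 0.70 on a Derlin-2 KO array. Astrocytes, whose endfeet cover the vessels, had medians of -0.03 and -0.01 over 6 genes, microglia -0.13 and 0.05, oligodendrocytes -0.04 and 0.06, and granule neurons 0.04 and 0.004. All 6 microglia genes were lower in Derlin-1 KO and 3 of 6 in Derlin-2 KO, where 44.07% and 52.33% of all genes were higher. The part of these cells in the endothelial values was not tested.

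**Figure D3:**
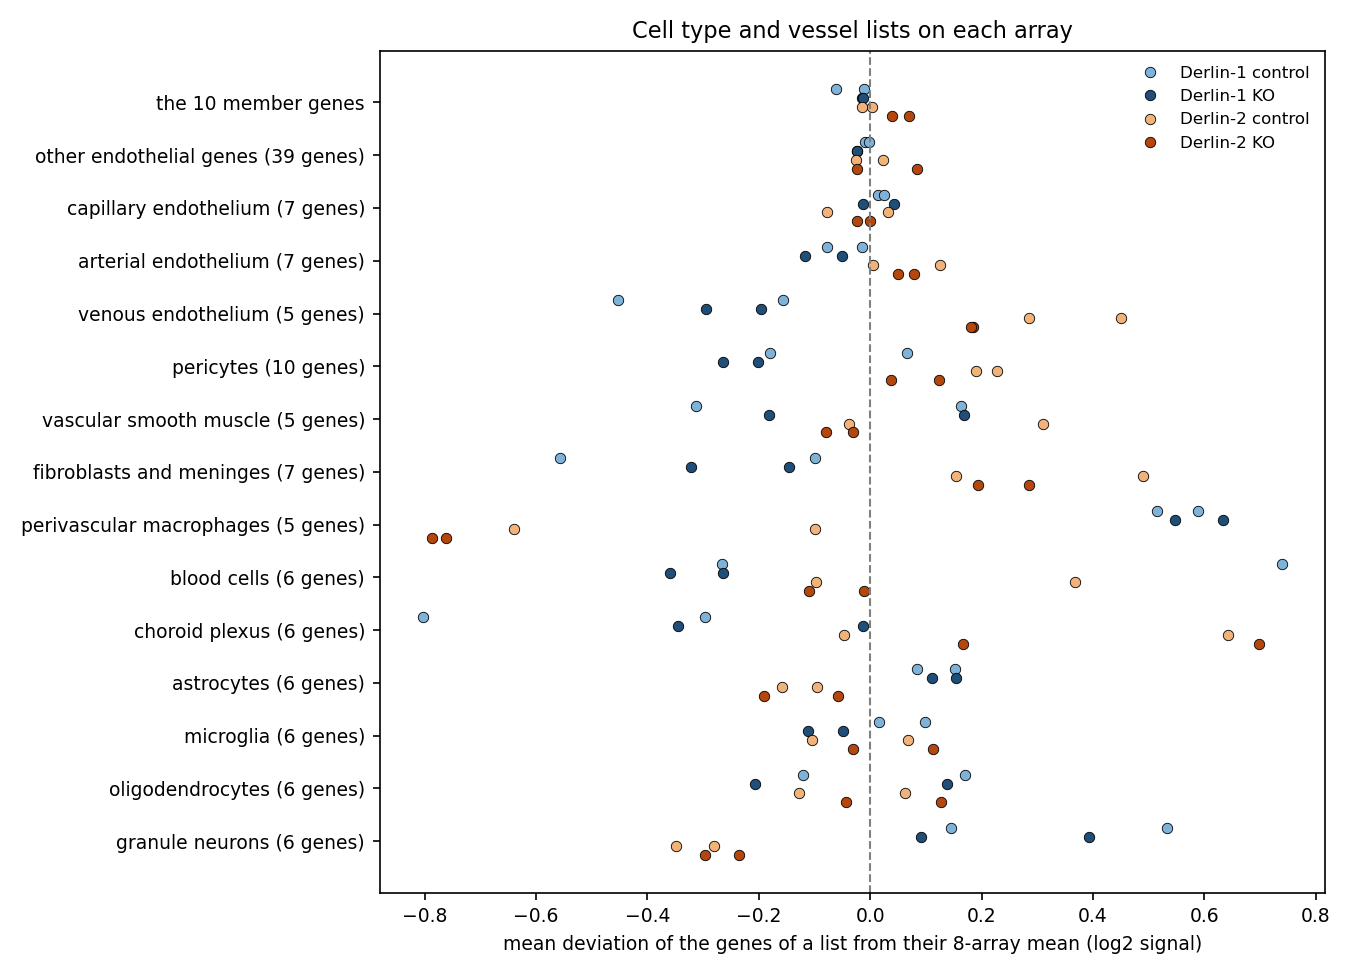
Mean deviation of each gene list from its own 8-array mean in log2 signal, with 2 circles for the arrays of each group. The 10 member genes and the further endothelial genes lie between -0.06 and 0.08 on every array. The venous list runs from -0.45 on a Derlin-1 control array to 0.45 on a Derlin-2 control array. Between the controls its 5 genes had a median difference of 0.32. The brightest probe of Ephb4, a gene of this list, differed by 1.90, and the other Ephb4 probes by less. Blood cell genes reach 0.74 on a Derlin-1 control array. Macrophage and granule neuron markers separate the lines, as do the venous, arterial, astrocyte and fibroblast lists.

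More genes passed the test between the controls of the 2 lines than between KO and control. Limma called 4.49% of all genes between Derlin-2 control and Derlin-1 control, and 0 of the 10 endothelial genes. At an unadjusted p under 0.05 there were 2 of the 10, Kdr and Cdh5, against 26.9% of all genes. The Kdr difference, Derlin-2 control minus Derlin-1 control, was 0.46 (SE 0.15, limma adjusted p = 0.121) and that of Cdh5 was 0.42 (SE 0.15, limma adjusted p = 0.132). Tek and Slco1a4 differed the other way, by -0.37 (limma adjusted p = 0.184) and -0.28 (limma adjusted p = 0.21). Derlin-2 control lay wholly above Derlin-1 control for 3 of the 10 genes, Kdr, Cdh5 and Flt1, against 25.1% of all genes, and wholly below for 2, Tek and Slco1a4, against 29.8%. With the KO arrays included, all 4 arrays of the Derl2 line lay above the Derl1 line for Cdh5, Flt1 and Kdr, as they did for 16.3% of all genes, and below it for Slco1a4, as for 18.6%. Over the 10 genes the differences between the controls went both ways, from -0.37 to 0.46, with 6 higher in Derlin-2 control and a median of 0.05. The 39 further endothelial genes had 24 higher and a median of 0.09. All 5 venous genes were higher there, with a median of 0.32, and 9 of 10 pericyte markers, with a median of 0.30, against -0.03 over all genes. Of the vessel genes outside the 10, the venous marker Ephb4 passed limma's test, at 7.94 and 8.26 in Derlin-1 control and 9.79 and 10.21 in Derlin-2 control, a difference of 1.90 (SE 0.18, adjusted p = 0.011). The other two probes of Ephb4 differed by 0.47 and 0.06, with limma adjusted p of 0.239 and 0.898. The call was lost without Derlin-1 control replicate 1 (limma adjusted p = 0.0604) and with a block for the replicate number (limma adjusted p = 0.0512). The other listed genes that passed were Col1a2, higher in Derlin-2 control, and Mrc1, Pf4, F13a1, Gfap, C1qa and C1ql2, lower there, with limma adjusted p from 0.0374 to 0.0499. Each of these 7 calls was lost with the replicate block, where the adjusted p ran from 0.0705 to 0.115, and without the filter on dim probes. Leaving out 1 array also ended each of them, for 6, 7 or 8 of the 8 arrays. All 5 macrophage markers and all 6 granule neuron markers were lower in Derlin-2 control, with medians of -0.93 and -0.66, and their part in the endothelial differences was not tested.

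Ordered by group mean, the groups did not keep 1 order over the 10 genes. Derlin-1 KO was the highest group for Cldn5, Tek, Slc2a1, Slco1a4 and Mfsd2a, Derlin-2 KO for Flt1 and Kdr, Derlin-2 control for Cdh5 and Pecam1, and Derlin-1 control for Abcb1a. Of 30 pairs of neighbours in these orders 6 did not overlap, against 33.4% of such pairs over all genes. They were those between the lines for Cdh5, Flt1, Kdr and Slco1a4, and between KO and control for Kdr in the Derl2 line and Slco1a4 in the Derl1 line. The range of the group means ran from 0.10 for Abcb1a to 0.86 for Kdr.

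The replicates differed in how close they lay. The median gap between the 2 arrays of a group over the 10 genes was 0.09 in Derlin-1 control, 0.04 in Derlin-1 KO, 0.31 in Derlin-2 control and 0.15 in Derlin-2 KO. Over all genes these medians were 0.18, 0.11, 0.20 and 0.11. The endothelial gaps were thus wider than those of all genes in the Derl2 line and narrower in the Derl1 line. In Derlin-2 control 5 genes were higher in replicate 1, Cldn5, Pecam1, Kdr, Tek and Slco1a4, and 5 in replicate 2, Cdh5, Flt1, Abcb1a, Slc2a1 and Mfsd2a.

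The 10 genes did not rise and fall together from array to array. After each value was centred on the mean of its line, the median Pearson's r over the 45 pairs of genes was -0.11 on 8 arrays that share slides and groups, and 19 pairs were positive. The median was -8.9e-05 over all pairs of 12499 genes, a set limited to genes whose centred values had an SD of at least 0.1. The 45 pairs were not limited in this way. The highest values were 0.88 for Slc2a1 and Cdh5, 0.80 for Cldn5 and Slco1a4, and 0.80 for Abcb1a and Cdh5. The lowest were -0.88 for Abcb1a and Slco1a4, -0.80 for Mfsd2a and Kdr, and -0.75 for Cldn5 and Abcb1a, whose promoters are printed above. Cldn5 and Abcb1a lay on the same side of the mean of their line on 4 of the 8 arrays, and without Derlin-2 control replicate 2 their r was -0.10. That array had Cldn5 at -0.28 and Abcb1a at 0.21 against the mean of its line.

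**Figure D4:**
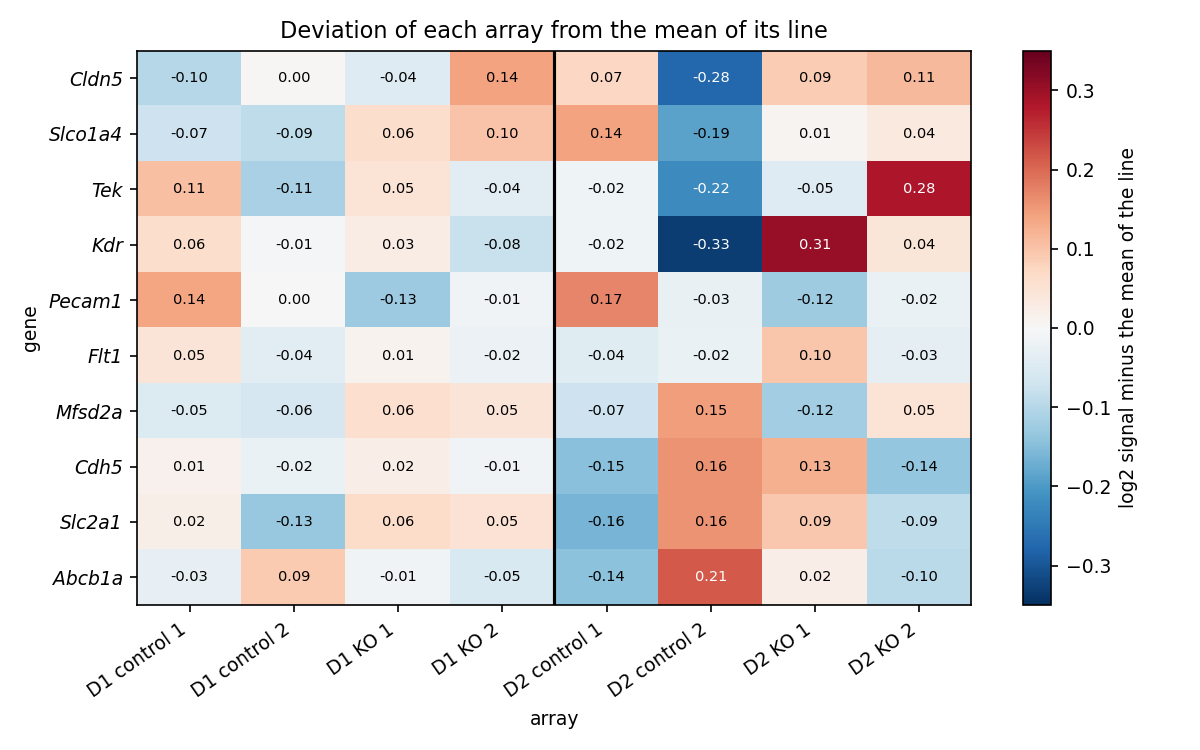
Log2 signal of the 10 genes on each array minus the mean of the 4 arrays of its line, from blue (below) to red (above). On Derlin-2 control replicate 2 Cldn5, Slco1a4, Tek and Kdr lay at -0.33 to -0.19, and Mfsd2a, Cdh5, Slc2a1 and Abcb1a at 0.15 to 0.21.

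Outside the 10 genes, 12491 genes were searched for a pattern like theirs over the 8 line-centred arrays. Genes that followed the mean of the 10 genes closely were Rap2c, with Pearson's r of 0.973, Crb2 with 0.968, Thumpd2 with 0.967 and Zfp704 with 0.966. Cldn5 alone was followed by Ldoc1 with 0.996, Dhps with 0.979, Pck2 with 0.976, Adamts9 with 0.974 and Megf11 with 0.968. None of the further endothelial genes was among those named. These values are a description of 8 arrays searched over many genes.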

How the data were processed

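Dentate gyrus RNA was labelled with Cy3 and hybridised to 1-colour Agilent SurePrint G3 Mouse arrays. Spot values in the deposited scanner files are intensity after background subtraction and detrending by Agilent Feature Extraction 10.7.1.1, per the file headers. The deposited tables hold log2 values that the authors quantile-normalized in GeneSpring and set against the median of all samples. Those served as an alternative, and the fold-change columns of the authors were not used. Of 59305 gene spots per array, those with an outlier flag were left out. The processed signal was floored at 1, taken to log2 and quantile-normalized over 8 arrays, and spots of a probe were averaged. Limma 3.58.1 (R 4.3.3) was fitted to 4 group means with 4 residual and 2.08 prior degrees of freedom, and p-values were adjusted by Benjamini-Hochberg over all tested probes (threshold 0.05). A probe was tested where both arrays of at least 1 group of the comparison were well above background, and the difference between the lines was an interaction contrast. The fit was tested on simulated data, with normal noise and added changes larger than those of the endothelial genes in KO. That test does not show how well small changes are found. The number of arrays limits the precision, and nothing in the labels says that the 2 arrays of a group are separate animals, so p-values measure the spread between these samples only.

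Genes were named by a rule: the 10 genes with all their probes, in each other list the 2 largest changes per line and any gene past the threshold, and the 5 genes most alike in pattern (SD of the centred values at least 0.1). Not all the genes that the rule allows are printed, and 1 of those alike in pattern is not reported here. The genes and the 17 lists were chosen with earlier results of these data known. Alternatives were 75th percentile scaling, normexp (offset 50, on median signals since mean signals were not used here), other filters, centring in 8 bands of rows, the deposited log2 values, a fit per line, a replicate block, averaging over probes, the methods' t-test and leaving out each array.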

Additional observations from a re-analysis of the deposited data

How the results depend on the processing

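No alternative gave a call for any of the 10 genes with an adjusted p, and 620 of 660 values of single genes kept their sign. With normexp Cdh5 was at -0.0515 in the Derl1 line, 0.0049 in the Derl2 line and -0.0564 for the difference. Centring in row bands put Abcb1a at 0.0127 and Mfsd2a at -0.0609 between the controls. Averaging over probes put Abcb1a at 0.1461 and 0.0129 in the Derl1 and Derl2 lines, where its dim second probe enters. The median of the 10 genes moved by more than the SD between replicates, 0.0174, in these cases. In the Derl1 line it was 0.0835 with 75th percentile scaling, -0.0146 with normexp, 0.0727 in the deposited values and 0.0533 over all probes. In the Derl2 line it was 0.0465 with the percentile scaling and 0.0483 in the deposited values. For the difference it was 0.0356 with the percentile scaling and -0.0222 with normexp, and between the controls 0.0292 with normexp. Over the whole array, the count of probes called in the Derl2 line was 2 with normexp, 29 without a filter, 2 with a filter on every array, and 0 in a fit of the line alone, with the replicate block or by the methods' t-test after Benjamini-Hochberg adjustment. For the difference it was 0 with normexp, without a filter, with the filter on every array and with the replicate block. Between the controls it was 2979 with normexp, 1095 without a filter and 6 with the replicate block. The methods' t-test without adjustment called 2313 probes in the Derl1 line, with 2 of the 10 genes, and 1809 in the Derl2 line. The replicate block rests on numbers that 2 pairs per line share. Deviations of arrays with the same number correlated with Pearson's r of 0.266 in the Derl1 line and -0.098 in the Derl2 line, across probes. Whether such arrays share more than their number cannot be told from this. The block also ended the calls of all 8 listed genes between the controls, Ephb4 (limma adjusted p = 0.0512) and the 7 others. Leaving out each array in turn gave 0 to 1 probes called in the Derl1 line, 3 to 47 probes called in the Derl2 line, 0 to 16 probes called for the difference between the lines, 140 to 4346 probes called between the controls, and medians of the 10 genes of -0.0166 to 0.0379 in the Derl1 line, 0.0031 to 0.0904 in the Derl2 line, -0.0674 to 0.0291 for the difference between the lines, -0.0274 to 0.1068 between the controls. In the Derl1 line the log2 difference spanned -0.0089 to 0.0293 for Cdh5, -0.0505 to 0.031 for Flt1, -0.1017 to 0.1189 for Tek. In the Derl2 line the log2 difference spanned -0.1619 to 0.1409 for Cdh5, -0.0016 to 0.1292 for Flt1, -0.1193 to 0.2103 for Slco1a4, -0.2506 to 0.1074 for Abcb1a, -0.1548 to 0.1645 for Slc2a1, -0.1853 to 0.0347 for Mfsd2a. For the difference between the lines the log2 difference spanned -0.2814 to 0.0656 for Cldn5, -0.1308 to 0.1721 for Cdh5, -0.0915 to 0.1048 for Pecam1, -0.0495 to 0.28 for Slco1a4, -0.1724 to 0.1856 for Abcb1a, -0.0517 to 0.2675 for Slc2a1. Between the controls the log2 difference spanned -0.3295 to 0.0176 for Cldn5, -0.2123 to 0.1457 for Abcb1a, -0.0728 to 0.2465 for Slc2a1, -0.0724 to 0.1476 for Mfsd2a, 1.6917 to 2.1165 for Ephb4. The remaining values kept their sign. With 2 arrays a group, 1 array decides many of these counts.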
